A study of Mus musculus with 8 samples.

Results

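Cytochrome P450 enzymes are haem proteins of the endoplasmic reticulum and mitochondria that add oxygen to small lipophilic molecules, with electrons passed on by redox partner proteins. Some families clear drugs and other foreign compounds, while others make or break down fatty acid mediators, steroid hormones, bile acids, retinoic acid and vitamin D. The liver is their best known site, but skin and its appendages also carry P450 enzymes, with roles in barrier lipids, local steroid metabolism and the removal of retinoic acid. The P450 genes described here were those whose symbol has the form Cyp, a family number, a subfamily letter and a gene number. They were taken from probe sets with a single gene symbol, and the probe set with the highest mean log2 signal over all 8 arrays stood for the gene. The rule found 70 P450 genes among 18193 measured genes, from 93 probe sets, in 15 families and 34 subfamilies. It uses no difference between groups.

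The series asked how raised Runx1, a transcription factor, alters resting hair follicle stem cells. RNA of sorted mouse skin cells was hybridised to Affymetrix Mouse Genome 430 2.0 arrays, with 2 arrays in each of 4 groups. The groups crossed genotype, wild type (WT) or an inducible Runx1 transgene (labelled Runx1 iTG), with sorted population, bulge or hair germ. The WT bulge and WT hair germ mice were at postnatal day 20, as was replicate 1 of both transgenic populations, while replicate 2 of both was labelled day 21. Doxycycline was in the food of all 4 groups, WT included, at 1 g per kg and over 1 day. Its purpose is recorded as repression of H2BGFP. The promoter of the transgene is not stated in the labels. Cells were sorted for keratin 15-GFP and α6-integrin. CD34-positive cells were labelled bulge, the stem cell niche, and CD34-negative cells were labelled hair germ, the cell cluster that starts the next hair. The samples are labelled biological replicates, and p-values measure only the spread between samples so labelled.

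Checks of the libraries come before the results. Runx1 signal was 489 to 904 on the 4 WT arrays and 12107 to 19461 on the 4 Runx1 iTG arrays, a mean rise of 4.53 on the log2 scale (SE 0.18, limma adjusted p 3.89e-06). By Xist and 3 Y-linked genes, replicate 1 of each group was male and replicate 2 female, so the spread within every group includes sex. Signal of Cd34 had group means of 8907 and 6492 in bulge and 14.2 and 3.56 in hair germ, as sorted. The CD34-negative cells nevertheless did not carry a hair germ profile. All 10 measured sebaceous gland and upper follicle markers were higher in them, including Pparg and Far2. Of the 7 hair germ markers, 5 were lower (Lef1, Msx2, Hoxc13, Gli1 and Cdh3) and 0 were higher. Of the 9 bulge markers, 8 were lower. The counts are limma calls on the average over both genotypes, where 9.17% of all genes were higher and 9.11% lower. These cells are therefore called the CD34-negative cells labelled hair germ, or hair germ for short, and no other name is given to them. The summed signal of the sebaceous and upper follicle markers was 8998 to 9908 in WT bulge, 14641 to 16271 in Runx1 iTG bulge, 57968 to 64875 in WT hair germ and 64321 to 67909 in Runx1 iTG hair germ. In these bulk samples fewer cells of a type and less RNA per cell cannot be told apart.

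A signal was called above background where it exceeded 31.1, the 95th percentile of the 27 probe sets for bacterial spike-in transcripts, which mouse RNA should not bind. Each gene was judged by its brightest probe set, and other probe sets of some genes lay below the limit. By this limit on group means, 44 of 70 P450 genes were above background in at least 1 group and 24 were above it in all 4 groups. That is 62.9% and 34.3% of the P450 genes, beside 83.8% and 66.3% of all genes. Each of the 15 families had a member above background somewhere. The count hardly differed between groups, with 32 genes in WT bulge, 33 in WT hair germ, 31 in Runx1 iTG bulge and 34 in Runx1 iTG hair germ. Signals of different probe sets are not on a common scale, so genes are compared only with themselves across arrays and with the limit. The sum over a marker list is set only against the same sum on other arrays, and bright probe sets weigh most in it.

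Families 1 to 4 held 54 of the 70 genes. In family Cyp2, 11 of 35 genes were above background in all 4 groups, in family Cyp4 5 of 11, and in family Cyp1 1 of 3. Family Cyp3, which clears drugs in liver and gut, had 0 of 5 in all 4 groups and only Cyp3a13 above the limit anywhere. Among the small families, Cyp20, Cyp21, Cyp39 and Cyp46 each had their single gene above background in all 4 groups, and Cyp11, Cyp26 and Cyp27 each had 1. Members of Cyp7, Cyp8, Cyp17 and Cyp24 passed the limit in some groups only. The subfamilies Cyp2a, Cyp2e, Cyp4a and Cyp4x had no member above background. All 11 measured Cyp2c genes lay below the limit in at least 1 group, although 5 passed it somewhere.

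**Figure D1:**
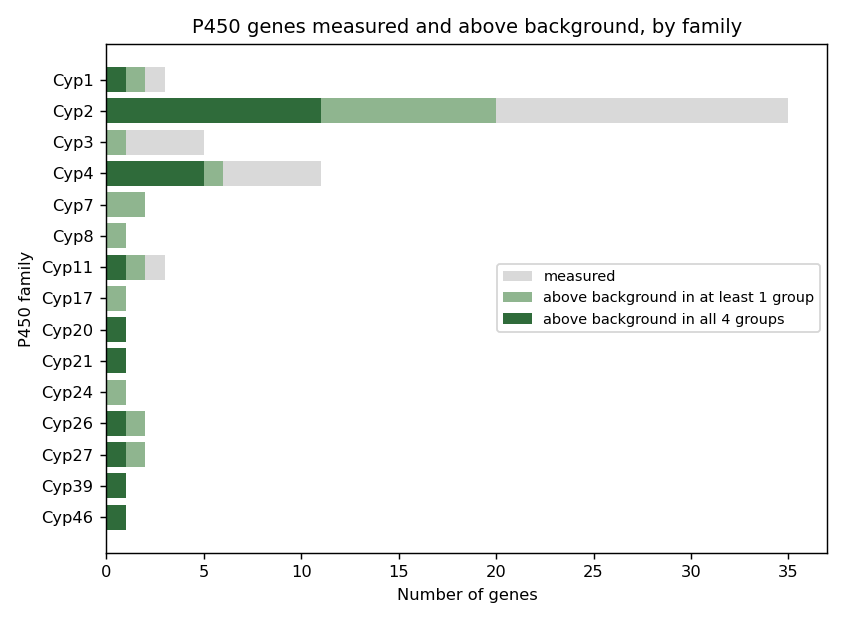
Number of P450 genes per family that were measured (grey), above background in at least 1 group (light green) and above background in all 4 groups (dark green). Family Cyp2 had 35 measured genes, 20 of them above background in at least 1 group and 11 in all 4, while Cyp3 had 1 of 5 and none in all 4.

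Among the enzymes of foreign compounds, which are families Cyp1, Cyp2 and Cyp3 without Cyp2r1 and Cyp2u1, 21 of 41 genes were above background in at least 1 group and 10 in all 4. These 10 were Cyp1b1, Cyp2b10, Cyp2b19, Cyp2d22, Cyp2d40, Cyp2g1, Cyp2j6, Cyp2j9, Cyp2j13 and Cyp2s1. Several of them also act on fatty acids: Cyp2b19 of keratinocytes and the Cyp2j enzymes make epoxides from arachidonic acid. Cyp2b10, a phenobarbital-inducible enzyme of liver, had signals of 552 and 484 in WT bulge, 1239 and 555 in WT hair germ, 282 and 438 in Runx1 iTG bulge, and 129.7 and 1107 in Runx1 iTG hair germ. Its arrays thus spread widely within a group, and its other 2 probe sets had means in the same range. Cyp2b19 varied little, with 401 and 489.8 in WT bulge, 381 and 367 in WT hair germ, 454 and 530.5 in Runx1 iTG bulge, and 587 and 574 in Runx1 iTG hair germ. Cyp2j9 lay between 209 and 443 and Cyp2j6 between 234 and 447 over the 8 arrays, and neither was called in any comparison.

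Among the fatty acid hydroxylases, which are family Cyp4 with Cyp2u1, 7 of 12 were above background in at least 1 group and 6 in all 4: Cyp4b1, Cyp4f13, Cyp4f16, Cyp4f39, Cyp4v3 and Cyp2u1. Cyp4b1, an enzyme found mostly outside the liver, had signals of 2768 and 2889 in WT bulge, 3454 and 3534 in WT hair germ, 2624 and 4809.7 in Runx1 iTG bulge, and 1351 and 2333 in Runx1 iTG hair germ. The Runx1 iTG hair germ arrays were the lowest of the 8. Cyp4f39, the mouse counterpart of the enzyme that hydroxylates ultra-long fatty acids for the skin's ceramides, lay between 83.3 and 530.2.

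Steroid hormone genes were above background in at least 1 group for 4 of 5 and in all 4 groups for 2. These were Cyp11a1, which cuts the side chain of cholesterol in the first step of the pathway, with 37.8 to 101.3 over the arrays, and Cyp21a1, which leads to glucocorticoids and mineralocorticoids, with 58.8 to 353. Both lay near the limit or spread widely. The other probe sets of Cyp11a1 and of Cyp21a1 had means below the limit in all 4 groups, so both genes passed by their brightest probe set only. All 6 bile acid and cholesterol genes passed the limit somewhere, and 3 passed it in all 4 groups. Cyp39a1, which acts on an oxysterol, had signals of 751 and 475 in WT bulge, 444 and 380.3 in WT hair germ, 441 and 349 in Runx1 iTG bulge, and 143 and 229.7 in Runx1 iTG hair germ, the last group being below the others. Cyp27a1, the mitochondrial sterol hydroxylase, ranged from 72.4 to 893 with a wide spread between the 2 arrays of each WT group, and Cyp46a1, which hydroxylates cholesterol in brain, from 108 to 285.

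Of the vitamin D genes, Cyp2r1, which carries out the first activating step, was above background in all 4 groups on group means (21.3 to 121 over the arrays). Cyp24a1, which inactivates the hormone, passed the limit in 3 groups. Cyp27b1, which carries out the last activating step, passed it in WT bulge only, where its arrays were at 124 and 23.8. Cyp20a1, with no known substrate, was above background in all 4 groups, with 305 and 184 in WT bulge, 340.1 and 659 in WT hair germ, 151 and 287 in Runx1 iTG bulge, and 596 and 500.6 in Runx1 iTG hair germ.

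**Figure D2:**
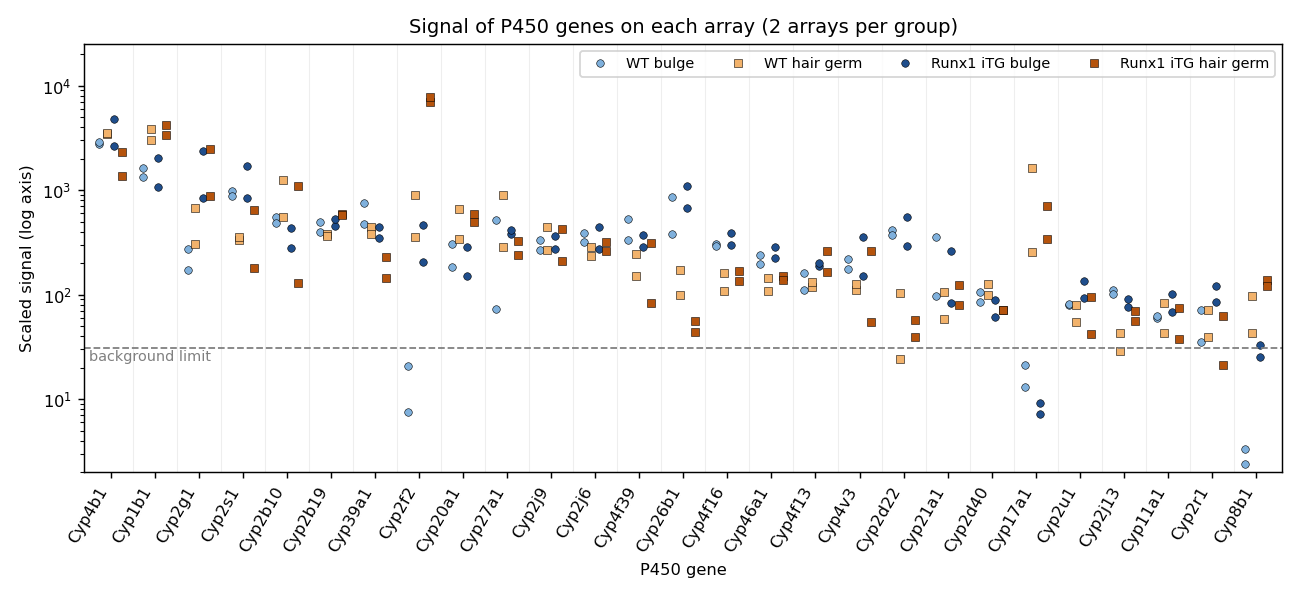
Scaled signal on a log axis of the 24 P450 genes above background in all 4 groups and of Cyp2f2, Cyp17a1 and Cyp8b1, with 1 point per array and 2 arrays per group; the dashed line is the background limit of 31.1. Cyp2f2 and Cyp17a1 lay below the line on both WT bulge arrays and above it on all hair germ arrays, and Cyp26b1 was lower on the 4 hair germ arrays than on the 4 bulge arrays.

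The comparison of hair germ with bulge asks how the CD34-negative and CD34-positive cells differ. Averaged over both genotypes, 9 of 70 P450 genes (12.9%) passed a limma adjusted p of 0.05, beside 18.3% of all genes. Of these, 5 were higher in hair germ (Cyp2f2, Cyp17a1, Cyp8b1, Cyp1b1 and Cyp20a1) and 4 were lower (Cyp26b1, Cyp2d22, Cyp2s1 and Cyp4f16), beside 9.17% of all genes higher and 9.11% lower. With the 26 genes that were below background in every group set aside, the same 9 are 20.5% of 44. A gene can pass this filter only through the group where it is high. The share of all genes after the same filter was not computed, so the 20.5% cannot be set against the 18.3%. The median difference was -0.33 for the P450 genes and -0.09 for all genes on the log2 scale.

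Cyp17a1, which converts progestogens towards androgens, had signals of 21.3 and 13.1 in WT bulge, 256 and 1620.5 in WT hair germ, 9.10 and 7.18 in Runx1 iTG bulge, and 701 and 342 in Runx1 iTG hair germ. All 4 bulge arrays were below background and all 4 hair germ arrays well above it, with a wide spread between the WT hair germ arrays. Because the bulge side was below background, its difference is a lower bound, the hair germ mean divided by the limit. It was at least 18.0-fold higher in hair germ on average over both genotypes (limma adjusted p 0.00023), at least 20.7-fold in WT (adjusted p 0.00623) and at least 15.7-fold in Runx1 iTG (adjusted p 0.0026). In WT the call did not hold when WT hair germ replicate 2 or WT bulge replicate 2 was left out, with adjusted p up to 0.0805 over the fits that leave out 1 array.

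Cyp2f2, known from lung club cells, where it activates naphthalene, had signals of 7.57 and 20.9 in WT bulge, 355 and 895 in WT hair germ, 466 and 207 in Runx1 iTG bulge, and 6979 and 7786 in Runx1 iTG hair germ. The 2 WT bulge arrays were below background, and the 2 Runx1 iTG hair germ arrays stood far above the other 6. Within each genotype the populations did not overlap. Hair germ was at least 18.1-fold higher in WT (limma adjusted p 0.000658), 23.7-fold higher in Runx1 iTG (log2 difference 4.57, SE 0.60, adjusted p 0.00155) and at least 20.7-fold higher on average (adjusted p 4.76e-05). These 3 calls held when any 1 array was left out.

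Cyp8b1, an enzyme of bile acid synthesis, had signals of 3.36 and 2.42 in WT bulge, 97.2 and 42.8 in WT hair germ, 25.1 and 32.8 in Runx1 iTG bulge, and 137 and 119.8 in Runx1 iTG hair germ. It was at least 2.88-fold higher in hair germ on average (limma adjusted p 0.00242), with its dim side below background. Cyp1b1, which oxidises polycyclic hydrocarbons, oestrogens and retinoids and is induced through the Ah receptor, had signals of 1623 and 1348 in WT bulge, 3006 and 3864 in WT hair germ, 1079 and 2049.7 in Runx1 iTG bulge, and 4160.1 and 3369.7 in Runx1 iTG hair germ. All hair germ arrays were above all bulge arrays. Cyp1b1 was 2.41-fold higher in hair germ on average (log2 difference 1.27, SE 0.22, limma adjusted p 0.00328), and a second Cyp1b1 probe set gave 1.27 as well (adjusted p 0.00377 over all probe sets). Another, dimmer Cyp1b1 probe set, below background in both bulge groups, gave 1.58 (limma adjusted p 0.135 over all probe sets). Cyp20a1 was 2.29-fold higher (log2 difference 1.19, SE 0.33, limma adjusted p 0.0324). Over all probe sets a second one gave 0.84 (adjusted p 0.0311) and another, dimmer one 0.50 (adjusted p 0.682). The Cyp20a1 call held in 3 of the 8 fits that leave out 1 array (highest adjusted p 0.134). It was lost without either Runx1 iTG hair germ array, without replicate 2 of either WT population, or without Runx1 iTG bulge replicate 1.

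Cyp26b1, which degrades retinoic acid and so limits its action, had signals of 382 and 864 in WT bulge, 174 and 99.8 in WT hair germ, 677 and 1085 in Runx1 iTG bulge, and 55.9 and 43.9 in Runx1 iTG hair germ. Each bulge array was above each hair germ array. On the log2 scale hair germ fell by 3.12 on average (SE 0.36, limma adjusted p 0.000327), by 2.13 in WT (SE 0.51, adjusted p 0.0367) and by 4.11 in Runx1 iTG (SE 0.51, adjusted p 0.00119). The difference between these 2 differences was -1.99 (95% interval -3.61 to -0.37, adjusted p 1.00), so the genotypes were not shown to differ in it. The WT call held in 1 of the 8 fits that leave out 1 array, the one without Runx1 iTG hair germ replicate 2, with adjusted p up to 0.283 in the others, and the Runx1 iTG call held in all 8. Cyp26a1, the other retinoic acid hydroxylase measured, was above background in Runx1 iTG bulge only, with a group mean of 37.4.

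Cyp2d22, a member of the drug-metabolising Cyp2d subfamily, had signals of 417 and 374 in WT bulge, 103 and 24.4 in WT hair germ, 294 and 556 in Runx1 iTG bulge, and 39.3 and 57.1 in Runx1 iTG hair germ. Bulge and hair germ did not overlap. Hair germ fell by 3.04 on the log2 scale on average (SE 0.49, limma adjusted p 0.00215), and a second Cyp2d22 probe set fell by 4.08 (adjusted p 0.00201 over all probe sets). Cyp2s1, a P450 of epithelia, had signals of 973 and 881 in WT bulge, 336 and 352 in WT hair germ, 839 and 1688 in Runx1 iTG bulge, and 179.8 and 649 in Runx1 iTG hair germ. Hair germ fell by 1.61 (SE 0.38, limma adjusted p 0.0163), and no hair germ array reached a bulge array. Cyp4f16 had signals of 302 and 292 in WT bulge, 161 and 108 in WT hair germ, 386 and 298 in Runx1 iTG bulge, and 134 and 168 in Runx1 iTG hair germ. Its arrays did not overlap either, and it fell by 1.18 (SE 0.30, limma adjusted p 0.0209), while a second, dimmer probe set gave -1.58 (adjusted p 0.117 over all probe sets). The Cyp2s1 and Cyp4f16 calls each held in 3 of the 8 fits that leave out 1 array, with adjusted p up to 0.0803 and 0.0715. The Cyp2s1 call was lost without any 1 of the 4 WT arrays or Runx1 iTG bulge replicate 2, and the Cyp4f16 call without either WT bulge array, WT hair germ replicate 2 or replicate 1 of either transgenic population. The calls on the average for Cyp2f2, Cyp17a1, Cyp8b1, Cyp1b1, Cyp26b1 and Cyp2d22 held in all 8 such fits.

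Within WT, 6 P450 genes passed (8.57%, beside 6.93% of all genes): Cyp2f2, Cyp17a1, Cyp8b1 and Cyp1b1 were higher in hair germ and Cyp2d22 and Cyp26b1 lower, beside 3.14% of all genes higher and 3.79% lower. The WT count was 3 without WT bulge replicate 1 and 1 without its replicate 2. It was 3 when WT hair germ replicate 1 was left out and 2 when its replicate 2 was. Among the 8 fits that leave out 1 array, the WT calls held in 8 for Cyp2f2, 6 for Cyp17a1 and Cyp8b1, 3 for Cyp2d22 (adjusted p up to 0.181), 2 for Cyp1b1 (up to 0.280) and 1 for Cyp26b1. Within Runx1 iTG, 5 passed (7.14%, beside 9.76% of all genes): Cyp2f2, Cyp17a1 and Cyp1b1 were higher and Cyp26b1 and Cyp2d22 lower, beside 4.5% of all genes higher and 5.26% lower. The Runx1 iTG count was 3 without Runx1 iTG hair germ replicate 1. The Runx1 iTG calls held in all 8 fits for Cyp2f2, Cyp17a1 and Cyp26b1, in 3 for Cyp1b1 (adjusted p up to 0.186) and in 2 for Cyp2d22 (up to 0.162). Beyond these, of the genes above background in 1 to 3 groups, Cyp7b1 and Cyp2c37 exceeded the limit in the mean of hair germ only, and Cyp2c68, Cyp2j11 and Cyp27b1 in the mean of bulge only. None of these 5 passed the test between populations.

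The marker lists moved with this comparison. Beside the sebaceous and upper follicle sums given above, the summed signal of 8 fibroblast and dermal papilla markers was 5219 to 6240.3 in WT bulge, 9335 to 9722 in Runx1 iTG bulge, 438 to 476 in WT hair germ and 436 to 849 in Runx1 iTG hair germ, with Lum below background in all groups. Most of that sum was Col1a1 and Col1a2. Of the 8, 4 were lower in hair germ on average (Col1a1, Col1a2, Col3a1 and Vim) and 0 higher. Of all genes, 9.11% were lower and 9.17% higher. Pdgfra had higher means in hair germ (46.5 and 74.8) than in bulge (15.5 and 16.6) without passing. Of the 7 melanocyte markers, 2 were lower in hair germ (Mitf and Dct) and 0 higher, beside the same shares of all genes. The melanocyte marker sum was 2089 to 4498 on bulge arrays and 428 to 1085 on hair germ arrays. It was mostly Mitf, at 1886 to 4180 and 374 to 868. Tyr and Mlana were below background throughout. Whether fibroblasts, dermal papilla cells or melanocytes were present, or had a part in the P450 differences, was not tested. The 5 measured hepatocyte markers summed to 176 to 429 on all 8 arrays with Fgb below background. Of the 3 club cell markers, a cell type known for Cyp2f2, Scgb1a1 had group means of 150 in WT bulge, 96.0 in WT hair germ, 313 in Runx1 iTG bulge and 173 in Runx1 iTG hair germ. In the same order Scgb3a2 had 58.02, 10.9, 57.6 and 22.3, and Sftpd had 8.503, 26.8, 44.3 and 10.3. On average 0 of the 3 had a higher value in hair germ and all 3 had a higher value in Runx1 iTG. In limma 0 passed in either average, and 1 had an unadjusted p under 0.05 in each. Of all genes, 18.3% passed in the population average and 0.0495% in the genotype average. An unadjusted p under 0.05 was found for 30.5% and 8% of all genes. The part of the club cell markers in the Cyp2f2 values was not tested.

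**Figure D3:**
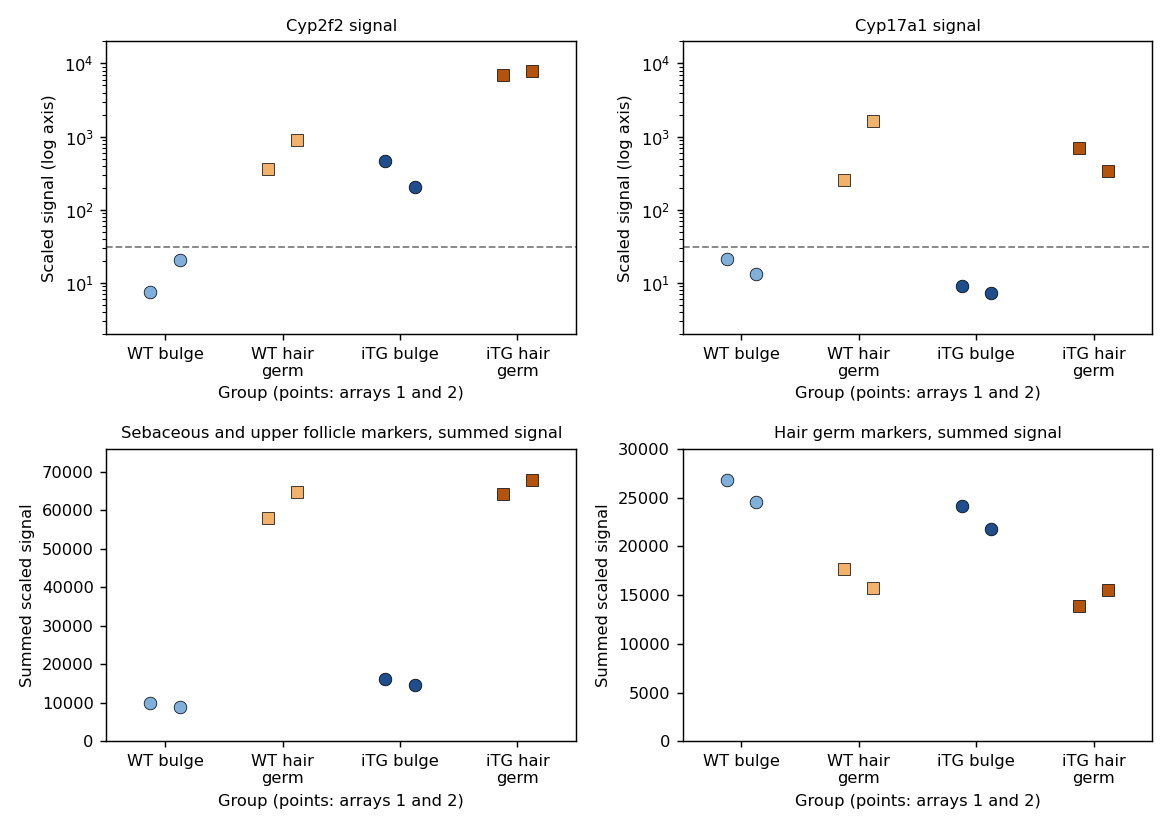
Signal of Cyp2f2 and Cyp17a1 on a log axis with the background limit dashed (top), and the summed signal of the sebaceous and upper follicle markers and of the hair germ markers on a linear axis (bottom), with 1 point per array. Hair germ arrays had sebaceous sums of 57968 or more against 16271 or less in bulge, and Runx1 iTG hair germ alone had Cyp2f2 signals of 6979 and 7786. The hair germ marker sum was mostly Ctnnb1, at 18396 of 26830 on WT bulge replicate 1 and 13162 of 13939 on Runx1 iTG hair germ replicate 1.

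The comparison of Runx1 iTG with WT asks which P450 genes move with raised Runx1. In bulge, 0 of 70 P450 genes passed limma's adjusted p of 0.05, beside 0.022% of all genes, and 6 (8.57%) had an unadjusted p under 0.05, beside 5.96% of all genes. In hair germ, 0 of 70 passed, beside 0.0275% of all genes, and 8 (11.4%) had an unadjusted p under 0.05, beside 6.78% of all genes. Averaged over both populations, 1 of 70 passed (1.43%, beside 0.0495% of all genes). That gene was Cyp2f2.

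Cyp2f2 was higher in Runx1 iTG in both populations, and within each population the arrays of the genotypes did not overlap. In bulge it was at least 9.98-fold higher, from below background in WT (limma adjusted p 0.0682). In hair germ it was 13.1-fold higher (log2 difference 3.71, SE 0.60, adjusted p 0.124). On average it was at least 11.4-fold higher (adjusted p 0.0081). This average call was lost in 5 of the 8 fits that leave out 1 array. Its adjusted p was 0.0824 without WT bulge replicate 1, 0.0925 without WT hair germ replicate 1, 0.11 without Runx1 iTG bulge replicate 1, 0.125 without Runx1 iTG hair germ replicate 1 and 0.0887 without Runx1 iTG hair germ replicate 2. With WT bulge below background, the bulge effect is only bounded, so whether the effect differs in size between the populations could not be measured.

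The second smallest p belonged to Cyp2g1, an enzyme best known from olfactory tissue. Its signals were 270.2 and 171 in WT bulge, 304 and 671 in WT hair germ, 839.9 and 2383 in Runx1 iTG bulge, and 876 and 2499 in Runx1 iTG hair germ. All 4 transgenic arrays were above all 4 WT arrays, and in each group but WT bulge replicate 2 was the higher. Cyp2g1 did not pass the test in either population or on average. The fold was 6.59 in bulge (log2 difference 2.72, SE 0.62, limma adjusted p 0.506), 3.28 in hair germ (1.71, SE 0.62, adjusted p 0.621) and 4.65 on average (2.22, SE 0.44, 95% interval 1.24 to 3.19, adjusted p 0.167).

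The other P450 genes with small p values on average were Cyp8b1, Cyp39a1 and Cyp7a1. Cyp8b1 had both bulge groups below background, so the size of its average difference is not given (limma adjusted p 0.272). In hair germ it was 1.99-fold higher in Runx1 iTG (limma adjusted p 0.906). Cyp39a1 had a log2 difference of -0.89 on average (SE 0.27, adjusted p 0.421) and of -1.18 in hair germ, where the genotypes did not overlap (SE 0.39, adjusted p 0.562). Cyp7a1, the rate-limiting enzyme of bile acid synthesis, had signals of 18.0 and 21.6 in WT bulge, 2.74 and 2.86 in WT hair germ, 38.3 and 27.7 in Runx1 iTG bulge, and 15.7 and 27.5 in Runx1 iTG hair germ. It passed the limit in Runx1 iTG bulge only, and just so. In hair germ Cyp4b1 had a log2 difference of -0.98 (SE 0.33, adjusted p 0.587). In bulge the remaining small p values were those of Cyp2d9 and Cyp2c38, whose WT bulge means of 31.2 and 31.7 lay at the limit and whose Runx1 iTG bulge means of 4.83 and 5.35 were below it.

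Cyp17a1 was not called between genotypes. Its log2 difference in hair germ was -0.40 (SE 0.86, 95% interval -2.33 to 1.53, limma adjusted p 0.99), and both bulge groups were below background. Cyp1b1 had a difference of 0.07 on average (95% interval -0.42 to 0.57), and Cyp26b1 one of -0.42 (95% interval -1.23 to 0.39). The median difference on average was -0.05 for all 70 P450 genes and 0.03 for all genes. For the 44 P450 genes above background in at least 1 group it was 0.03. The median of all genes after that filter was not computed, so this value has nothing to be set against. For the test of whether the genotype effect differs between populations, 0 of 70 P450 genes passed in limma, as did 0% of all genes, and 7 (10%) had an unadjusted p under 0.05, beside 4.61% of all genes. The 5 smallest p values belonged to Cyp26a1, Cyp2c38, Cyp4b1, Cyp26b1 and Cyp2e1. Of these Cyp2e1 was below background in every group, Cyp26a1 passed the limit in Runx1 iTG bulge only and Cyp2c38 in WT bulge only. The differences of Cyp2e1, Cyp26a1 and Cyp2c38 thus rest on signals near or below the limit. Cyp4b1 had a difference of -1.31 (SE 0.47), as its signal was similar in both WT populations and lower in Runx1 iTG hair germ.

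The sebaceous and upper follicle markers also had higher sums in Runx1 iTG bulge than in WT bulge, as given above, without overlap. In limma 0 of the 10 passed between genotypes in bulge and 5 had an unadjusted p under 0.05, beside 5.96% of all genes. Cidea was at least 5.12-fold higher (limma adjusted p 0.272) and Scd1 had a log2 difference of 1.29 (adjusted p 0.362). Their part in the Cyp2f2 difference was not tested. In hair germ 0 of the 10 passed and 2 had an unadjusted p under 0.05, beside 6.78% of all genes. Members moved apart there: from WT to Runx1 iTG hair germ the group mean went from 1488 to 4125 for Pparg, from 1504 to 2725 for Cidea and from 7118 to 10955 for Far2, and from 1964 to 466 for Gata6, from 9869 to 7409 for Lrig1 and from 7780 to 5077 for Plet1.

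**Figure D4:**
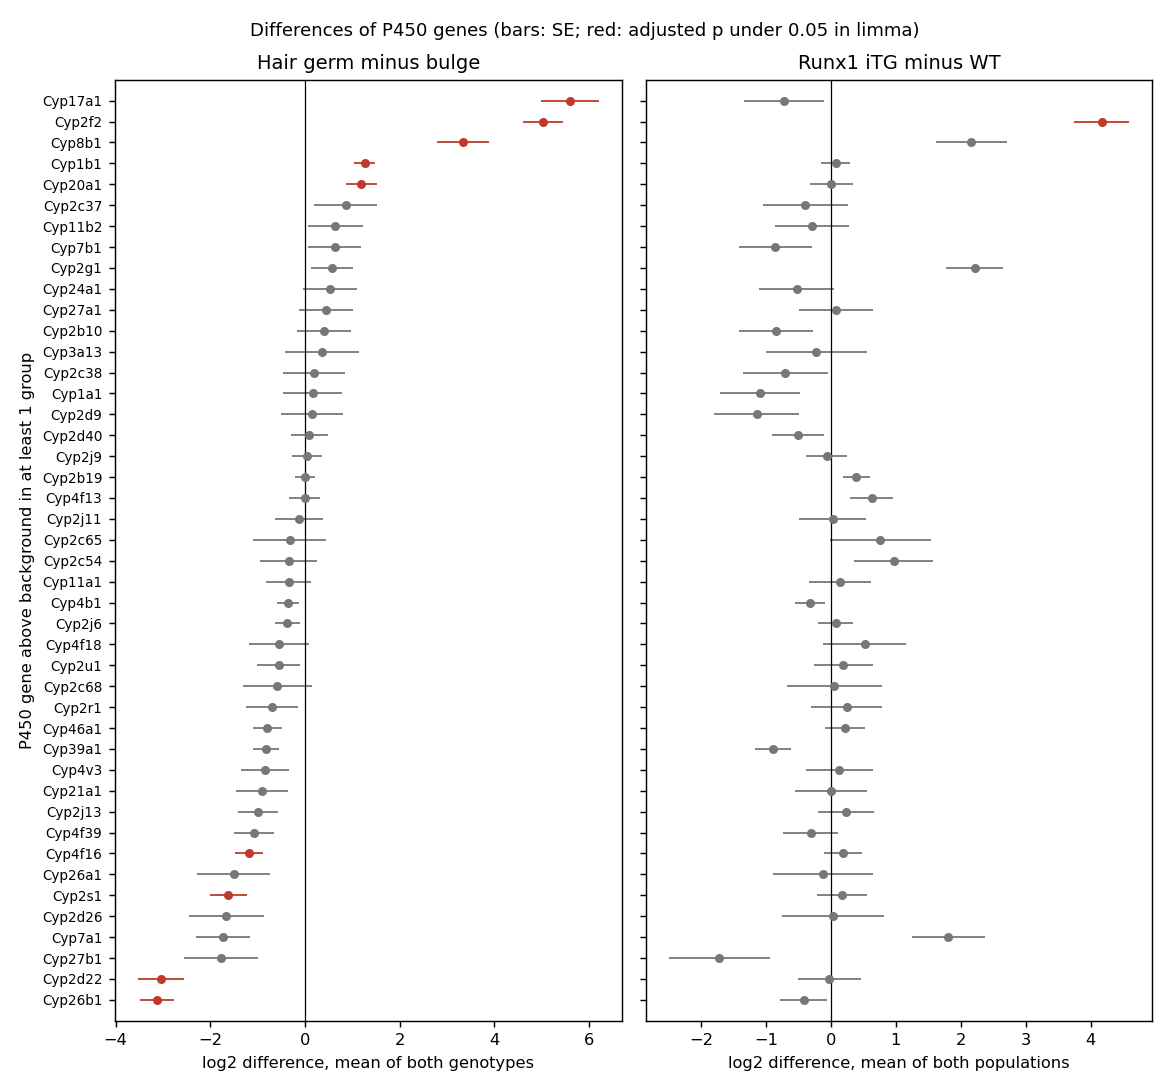
Log2 difference with its SE for the 44 P450 genes above background in at least 1 group, for hair germ minus bulge (left) and Runx1 iTG minus WT (right), with red points for genes past a limma adjusted p of 0.05. Red points were 9 on the left and only Cyp2f2 on the right; sizes that involve a group below background, such as those of Cyp17a1, Cyp8b1 and Cyp7a1, depend on the floor for low signals.

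Cyp2f2 and Cyp2g1 lie in the same run of neighbouring genes. In the RefSeq annotation of GRCm38.p6, 13 P450 genes follow each other on chromosome 7 with at most 10 other protein-coding genes between neighbours, in the order Cyp2s1, Cyp2b10, Cyp2b13, Cyp2b9, Cyp2a4, Cyp2b23, Cyp2b19, Cyp2g1, Cyp2a5, Cyp2a22, Cyp2a12, Cyp2f2 and Cyp2t4. Of these, 8 were measured. Cyp2f2 and Cyp2g1 had higher group means in Runx1 iTG in both populations. Cyp2b19, the gene before Cyp2g1, had group means of 443 and 374 in WT bulge and hair germ and 491 and 580.0 in Runx1 iTG bulge and hair germ, a difference of 0.39 on average (SE 0.21, limma adjusted p 0.701). Cyp2b10 had -0.84 on average and Cyp2s1 0.18, and Cyp2a12, Cyp2b9 and Cyp2b13 were below background in every group. Probes of closely related Cyp2 genes can share sequence, so values of single genes in this run are less certain.

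**Figure D5:**
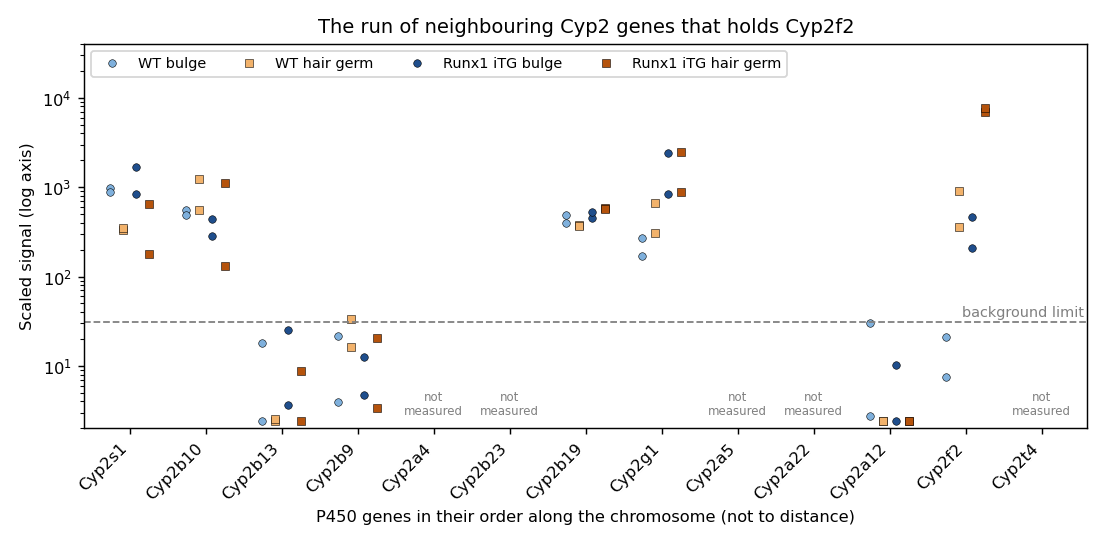
Scaled signal on a log axis of the 8 measured genes in the chromosome 7 run of 13 P450 genes, in gene order and not to distance, with 1 point per array and the background limit dashed. Cyp2g1 and Cyp2f2 were higher on Runx1 iTG than on WT arrays of the same population, while Cyp2b13, Cyp2b9 and Cyp2a12 had all group means below the line.

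Promoter sequences were read because the raised factor, Runx1, binds DNA and because several P450 genes are known targets of ligand-activated factors. RefSeq promoters of 300 bases, 250 before and 50 after the start, were found for 51 of the 70 genes as 58 promoters. They were searched on both strands for TGTGGT, the core of the RUNX motif, for GCGTG, the core of the Ah receptor element, and for AGAACA, the unit that the glucocorticoid receptor binds in pairs. No motif holds another whole, though matches of different motifs can share end bases, which none did in the promoters printed. TGTGGT was in 4 of the 58 P450 promoters (6.90%), in 3 of the 35 of genes above background (8.57%) and in 16.8% of all 32851 promoters. GCGTG was in 14 of 58 (24.1%), in 13 of 35 (37.1%) and in 32.4% of all. AGAACA was in 14 of 58 (24.1%), in 7 of 35 (20%) and in 18.97% of all. A match is a description of letters, not a binding site. Cyp1b1, Cyp8b1 and Cyp26b1 had calls between populations, averaged over both genotypes, that held whichever array was left out. The promoters below are those of these genes and of Cyp2f2, the gene called between genotypes. They are printed 5′ to 3′ along the gene's strand on GRCm38.p6, and capitals mark a match to one of the motifs on either strand. The promoter table held no entry for Cyp17a1, Cyp2g1 and Cyp2d22.
Cyp2f2, chr7:27119705-27120004, plus strand: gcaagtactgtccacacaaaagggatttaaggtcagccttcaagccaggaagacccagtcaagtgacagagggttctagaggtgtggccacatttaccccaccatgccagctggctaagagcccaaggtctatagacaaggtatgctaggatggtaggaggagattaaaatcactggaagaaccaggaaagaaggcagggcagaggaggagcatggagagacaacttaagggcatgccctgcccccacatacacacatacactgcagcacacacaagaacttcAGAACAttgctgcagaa
Cyp1b1, chr17:79715012-79715311, minus strand: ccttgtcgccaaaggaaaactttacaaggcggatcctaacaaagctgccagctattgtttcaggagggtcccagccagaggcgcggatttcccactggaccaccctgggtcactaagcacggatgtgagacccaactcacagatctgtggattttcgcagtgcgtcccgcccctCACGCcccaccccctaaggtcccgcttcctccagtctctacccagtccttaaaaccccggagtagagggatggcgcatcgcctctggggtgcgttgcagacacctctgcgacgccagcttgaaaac
Cyp8b1, chr9:121916256-121916555, minus strand: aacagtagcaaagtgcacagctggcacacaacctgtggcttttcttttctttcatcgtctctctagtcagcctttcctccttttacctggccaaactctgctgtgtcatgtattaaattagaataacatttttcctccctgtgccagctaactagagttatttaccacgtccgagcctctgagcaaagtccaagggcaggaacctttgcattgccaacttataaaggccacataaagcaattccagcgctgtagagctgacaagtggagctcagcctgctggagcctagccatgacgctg
Cyp26b1, chr6:84593761-84594060, minus strand: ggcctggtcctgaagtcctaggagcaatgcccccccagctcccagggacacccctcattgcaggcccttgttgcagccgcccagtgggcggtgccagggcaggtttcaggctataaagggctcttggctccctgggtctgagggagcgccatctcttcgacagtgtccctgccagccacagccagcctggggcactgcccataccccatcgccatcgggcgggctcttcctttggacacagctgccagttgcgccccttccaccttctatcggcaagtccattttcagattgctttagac
The Cyp2f2 promoter held 1 match, AGAACA at base 284 of the window, and no TGTGGT. The Cyp1b1 promoter held 1 GCGTG core on the opposite strand, at base 175. The Cyp8b1 and Cyp26b1 windows held none of the 3 motifs, which says only that these letters are not in these windows. Of the other genes called between populations, the Cyp20a1 window held 2 GCGTG cores, that of Cyp4f16 1 and that of Cyp2s1 none of the motifs.

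Genes that work with P450 enzymes were taken from 4 further lists and compared between populations on average, where 18.3% of all genes passed. Of 33 measured genes for conjugation and other detoxification, 11 were higher in hair germ and 2 lower. The higher ones included Ces1d, a carboxylesterase (log2 difference 4.91, SE 0.23, limma adjusted p 2.31e-06), and the glutathione transferases Mgst1 (3.42) and Gsta4 (3.13). Nqo1, a quinone reductase, fell by 1.33 and Ephx1, the microsomal epoxide hydrolase, by 1.08. Of 16 listed redox partner and haem genes, 13 were measured, without Por, Fdxr and Fdx1l. Of these 13, 3 were higher (Cyb5b by 2.04, Pgrmc1 by 1.26 and Pgrmc2 by 0.72), and 0 were lower.

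Of 21 measured receptors and factors known to regulate P450 genes, from a list of 22, 5 were higher in hair germ and 4 lower. Pparg, the receptor of fat-storing cells that is also one of the sebaceous markers, was at least 79.0-fold higher (limma adjusted p 5.71e-06), and Ppara rose by 3.20 (SE 0.19, limma adjusted p 8.28e-06). Ahr, the receptor that induces Cyp1b1, rose by 2.28 (SE 0.21, limma adjusted p 8.79e-05), and Nr1h3 and Nfe2l2 were the other two. The retinoic acid receptors Rara and Rarg fell by 1.60 and 0.69, Vdr, the vitamin D receptor, by 0.60 and Nr3c1, the glucocorticoid receptor, by 0.68. Of 16 measured steroid partner genes, from a list of 20, 7 were higher and 1 was lower. Hsd17b12 and Hsd17b4, which also act on fatty acids, rose by 2.13 and 2.08, and Hsd17b11 fell by 2.55. Akr1c18, which inactivates progesterone, was higher (limma adjusted p 0.0235), but its level went with the replicate number. Its hair germ signals were 309.5 and 508 in replicate 1 of WT and Runx1 iTG and 13243 and 11537 in replicate 2, and its bulge signals were 7.19 and 2.77 in replicate 1 and 113 and 210.3 in replicate 2. Hsd3b1 and Hsd17b3 were below background in all groups.

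Between genotypes, 1 gene of these 4 lists passed, in bulge and on average. It was 1 of the 33 measured conjugation and detoxification genes (3.03%), beside 0.022% of all genes in bulge and 0.0495% on average. Ces1d rose in Runx1 iTG bulge by 2.88 (SE 0.32, limma adjusted p 0.0266) and on average by 1.91 (SE 0.23, adjusted p 0.0237), and it was also the list's gene with the smallest p between populations. Of 3 P450 enzymes whose symbols fall outside the naming rule, Cyp51, which demethylates lanosterol in cholesterol synthesis, was higher in hair germ by 1.74 (SE 0.26, limma adjusted p 0.00137), and Tbxas1 and Ptgis, which make thromboxane and prostacyclin, did not pass.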

How the data were processed

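The deposited values were the authors' processed intensity of 45101 probe sets on a linear scale, with a mean of 500.0 per array after trimming 2% at each end. No source used here names the program that summarised the probes. Per the labels, 5 ng of total RNA was amplified with the NuGEN Ovation Pico system, and such amplification can widen the scatter of dim transcripts. The 64 control probe sets were removed, each array was brought to the same 75th percentile, a floor of 2.42 was applied, and log2 was taken. Of the probe sets, 34945 had 1 gene symbol, 932 had several and 9160 none. Deposited medians were 101.6 to 162 per array, and 69.0% to 77.0% of probe sets were above background; the number of arrays limits precision (median SE 0.52 on the log2 scale). One model of 4 group means was fitted over all 18193 genes in R 4.3.3 with limma 3.58.1 and an intensity trend (residual df 4, total 9.87), 7 contrasts and Benjamini-Hochberg adjustment per contrast. The fit was tested on data simulated with independent normal noise of the size that the fit itself estimated. That test checks the computation and does not cover effects of sex, age or amplification. The model has 2 arrays per group, and the labels do not say whether both populations of one number come from 1 animal. Where the dim side was below background, the bound raises each dim array under the limit to it. The text names Cyp2f2 and Cyp17a1, the P450 genes past the threshold, those above background in all 4 groups, the 5 with the smallest p per contrast, and those above background in 1 population's mean only, with up to 4 members of each partner list and any called between genotypes. All members, lists and rules were chosen with earlier results of these data known. Alternatives changed the normalization, offset, filter on dim genes, probe set rule, prior trend, groups fitted, day 21 arrays, replicate block, background limit and each array.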

Additional observations from a re-analysis of the deposited data

Results flagged for a closer look

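Of the 4 probe sets that carry 2 P450 symbols each and so stand for no gene here, 2 had a signal in Runx1 iTG above that of the WT group. The first had a mean signal of 56.1 in Runx1 iTG hair germ (54.3 and 57.98) and of 6.49 in WT hair germ, and no array of the other 3 groups exceeded 8.31. The second had a mean of 125 in Runx1 iTG bulge, where WT bulge had 69.1, and of 81.2 in Runx1 iTG hair germ, where WT hair germ had 31.1. They were singled out as signals outside the genes compared, and the differences were not tested. Only signals above background and higher in Runx1 iTG were looked for. The share of all probe sets with such an order was not computed, so the count of 2 has nothing to be set against.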

How the results depend on the processing

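With 2 arrays per group, single arrays decide many calls. For hair germ minus bulge on average, the P450 count of 9 stayed within 1.5 times under every alternative run, at 6 to 9 when 1 array was left out. In WT, where the count was 6, it was 3 with day 20 arrays only and 1 to 5 when 1 array was left out. In Runx1 iTG, where it was 5, it was 3 without the intensity trend, 0 with day 20 arrays only, which leaves 1 array in each transgenic group, and 3 to 5 when 1 array was left out. For Runx1 iTG minus WT, the count in bulge was 1 (Cyp2f2) with quantile normalization or with dim genes left out. In hair germ it was 1 (Cyp2f2) with an offset of 50. On average it was 0 without the intensity trend (Cyp2f2 adjusted p 0.185), 0 with day 20 arrays only (0.195) and 0 to 1 when 1 array was left out. With the limit at the median of all probe sets (130), 21 P450 genes were above background and 13 in all 4 groups. With 1 array left out these counts were 43 to 46 and 23 to 25. Of the values of single genes under alternatives, 576 kept their side of the threshold, 81 lost their call, 3 gained one and 0 reversed. The 576 include named genes without a call in the main fit, which kept their side by staying uncalled. That number therefore does not measure how stable the calls were, and the causes were not tested. Same-numbered arrays share a sex, but their deviations across genes correlated at -0.03 to 0.08. The replicate block gave 9, 5 and 7 calls between populations (average, WT, Runx1 iTG) and 1, 0 and 0 between genotypes (average, bulge, hair germ). Signals near the limit of 31.1 are close to what the controls give.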

Other observations

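Since replicate 1 was male and replicate 2 female by sex-linked signals in all 4 groups, the difference between the replicate numbers was read from the fit with the replicate block. In the transgenic groups it also separates day 20 from day 21. Of 70 P450 genes, 0 passed limma's adjusted p of 0.05, beside 0.0275% of all genes, and 6 (8.57%) had an unadjusted p under 0.05, beside 5.52% of all genes. These were Cyp2c68, Cyp27b1, Cyp2c23, Cyp2d10, Cyp2g1 and Cyp2d26. Cyp2g1, the only one of them above background in all 4 groups, had a log2 difference of 0.87 for replicate 2 minus replicate 1 (SE 0.35, adjusted p 0.88) and was higher in replicate 2 in 3 of 4 groups.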
